A study of Mus musculus with 6 samples.

Results

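The genes described here are 10 genes of the lysosome, the acidic organelle in which cells digest protein, lipid and sugar chains. They comprise 7 cathepsin proteases (Ctsa, Ctsb, Ctsd, Ctsk, Ctsl, Ctss and Ctsz), 2 major glycoproteins of the lysosomal membrane (Lamp1 and Lamp2) and Tfeb, which encodes a transcription factor of lysosomal genes. They were chosen by name, and their probes were found through the transcript accession printed beside each probe in the array files. All 10 genes were on the array, with 16 probes among 41174, and all 10 were among the 21059 genes and transcripts tested.

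RNA was measured on 6 one-colour Agilent arrays, 1 per liver RNA sample, from mice 5 weeks of age. Of these, 3 were from mice whose liver lacked small Maf through a tissue-specific knockout (sMaf CKO), and 3 were from wild type controls. All mice had a mixed background of 129Sv/J, C57BL/6J and ICR. The labels name neither the Cre driver, the small Maf genes deleted, the sex nor which cells of the liver kept the genes. The submitters call the RNA samples of a genotype independent. Nothing in the labels says that each came from a separate mouse, so the tests measure the spread between these samples.

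Cathepsins reach the lysosome as inactive precursors, most of them by way of mannose 6-phosphate receptors, and are activated in its acid interior. TFEB enters the nucleus when nutrient signalling at the lysosome falls, and binds sites with an E-box core in the promoters of lysosomal genes. Small Maf proteins have no transactivation domain and pair with CNC and Bach proteins, and these heterodimers bind antioxidant response elements. In the liver, hepatocytes and the resident macrophages, called Kupffer cells, are both rich in lysosomes. Cathepsin S is best known from macrophages and other antigen-presenting cells, and cathepsin K from osteoclasts.

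A level below is the log2 of a probe's processed signal minus the log2 of the 75th percentile of its array, and a difference is the sMaf CKO mean minus the control mean of such levels. Mafg, the small Maf gene whose signal differed most, had levels of -2.97, -4.36 and -0.76 on the sMaf CKO arrays against 1.88, 1.87 and 2.23 on the control arrays. Its difference was -4.69 (SE 0.79), which lay just above the threshold in limma's test over all genes (adjusted p = 0.0533). Without sMaf CKO replicate 3 it passed (limma adjusted p = 0.00484). With any other array left out it did not (limma adjusted p from 0.0815 to 0.194). With all 6 arrays, some alternatives called Mafg, among them slide as a block (limma adjusted p = 0.0207) and array weights (0.00916). Others did not, among them quantile normalization (0.0803), spike-in scaling (0.0566) and no filter on dim probes (0.177). Maff and Mafk differed by 0.15 and 0.21 (adjusted p = 0.911 and 0.759 with limma), and their signs turned under some alternatives. The tissue was checked by hepatocyte markers: all 14 tested were well above background on all 6 arrays. Slide 1 carried replicates 1 and 2 of each genotype and slide 2 carried replicate 3 of each, so a value within slide 2 sets 1 array against 1. Between 58.7% and 74.0% of spots were well above background on an array. The number of arrays limits the precision.

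None of the 10 genes passed limma's test at a Benjamini-Hochberg adjusted p under 0.05 over all genes tested, where 0.541% of genes passed (0.385% higher and 0.157% lower in sMaf CKO liver). At an unadjusted p under 0.05, 2 of the 10 were higher and 0 lower, against 8.71% and 8.1% of all genes. These were Ctsk and Ctss, the cathepsins of osteoclasts and of antigen-presenting cells. Ctsk met the filter of 3 arrays above background only with its sMaf CKO arrays, since 1 of 3 control arrays passed. Its place in this count and in that of genes without overlap thus depends on the group where it was higher. With a filter on all 6 arrays, which removed Ctsk, 1 of 9 was higher (share of all genes not taken). In all, 6 genes had positive and 4 negative differences, where 45.3% of all genes were positive. The median of the 10 was 0.20, beside -0.05 over all genes tested. The positive ones were 6 of the 7 cathepsins, whereas Ctsz, Lamp1, Lamp2 and Tfeb were negative. The groups stood apart, with no overlap between arrays, for Ctsa, Ctsd, Ctsk and Ctss, which were higher in sMaf CKO liver, and for Tfeb, which was lower, whereas 22.9% of all genes showed no overlap (11.3% with higher levels in sMaf CKO liver and 11.6% with lower ones). A p that misses the threshold does not show that levels were equal, so intervals are given for each gene. With 10 genes and 3 arrays a group, nothing particular to these genes is read from those counts.

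**Figure D1:**
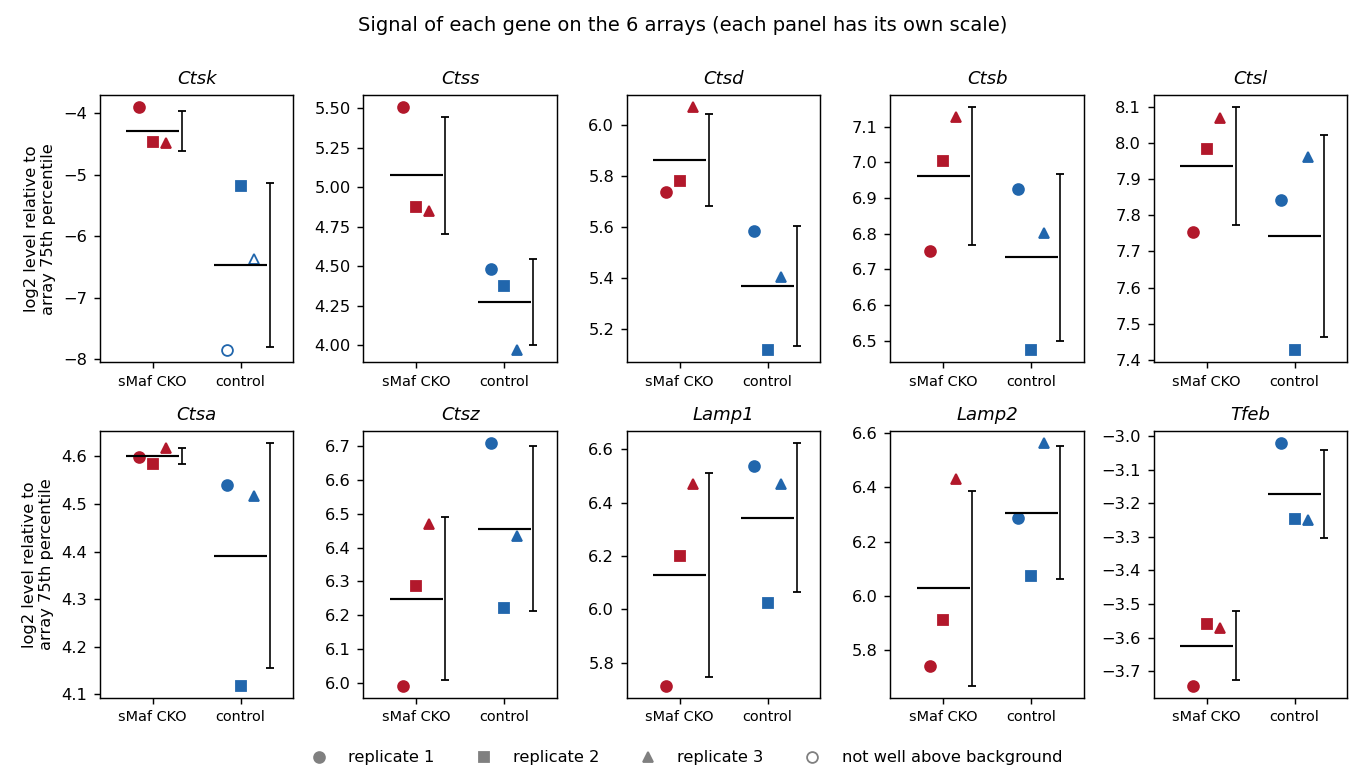
Levels of the 10 genes (y axis, log2 relative to the array's 75th percentile, a scale of its own in each panel) on the 3 sMaf CKO and 3 control arrays. Points are arrays, horizontal lines group means, vertical bars 1 SD, and open points arrays not well above background. The groups stand apart for Ctsk, Ctss, Ctsd, Ctsa and Tfeb and overlap for the other 5 genes.

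Tfeb, the regulator, had levels of -3.74, -3.56 and -3.57 on the sMaf CKO arrays and -3.02, -3.25 and -3.25 on the control arrays. All 3 sMaf CKO arrays lay below the lowest control array. The means were -3.62 ± 0.10 in sMaf CKO and -3.17 ± 0.13 in control liver (SD, n = 3 each), a difference of -0.45 (SE 0.20, 95% interval -0.92 to 0.02), which did not pass limma's test (adjusted p = 0.310). The signal was dim, at 71.7, 56.7 and 40.7 units in sMaf CKO and 71.6, 64.1 and 50.8 in control liver before scaling. The single Tfeb probe was well above background on all 6 arrays. The difference was -0.52 within slide 1 and -0.32 within slide 2, and it shrank to -0.19 with another background correction (normexp) and to -0.13 with spike-in scaling.

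Ctsk, whose protein is a cysteine protease that degrades collagen, had the largest difference of the 10 genes and the dimmest signal. Its levels were -3.91, -4.47 and -4.49 on the sMaf CKO arrays and -7.85, -5.18 and -6.37 on the control arrays. It was well above background on all 3 sMaf CKO arrays but on 1 of 3 control arrays, replicate 2. Before scaling its signal was 63.9, 30.1 and 21.5 units in sMaf CKO liver against 2.51, 16.8 and 5.84 units in control liver. The groups did not overlap, and the control arrays spread far more widely than the sMaf CKO arrays, with SDs of 0.33 in sMaf CKO and 1.34 in control liver (n = 3 each). The difference was 2.18 (SE 0.61, 95% interval 0.77 to 3.59), or 4.53-fold (limma adjusted p = 0.157). Its size rested on control arrays at the edge of detection. With the 2 dim control arrays raised to the lowest signal of any probe above background on those arrays, it was 2.04-fold higher. With normexp, which adds an offset to dim signals, the difference was 0.48 (adjusted p = 0.685), and without control replicate 1 or 2 it was 1.49 and 2.82.

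Ctss, whose product trims the invariant chain of class II antigen presentation, was bright and had the next largest difference. Its levels were 5.50, 4.87 and 4.85 on the sMaf CKO arrays and 4.49, 4.38 and 3.97 on the control arrays. Each sMaf CKO array was above each control array, with sMaf CKO replicate 1 the highest and control replicate 3 the lowest. The means were 5.08 ± 0.37 in sMaf CKO and 4.28 ± 0.27 in control liver (SD, n = 3 each), a difference of 0.80 (SE 0.27, 95% interval 0.17 to 1.43), or 1.74-fold. This did not pass over all genes (limma adjusted p = 0.210). The difference was similar within both slides, 0.76 within slide 1 and 0.88 within slide 2, and lay between 0.59 and 0.91 with any 1 array left out.

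Most macrophage markers had positive differences, though few passed the test. Of all genes tested, 45.3% had positive differences, 8.71% were higher at an unadjusted p under 0.05 and 0.385% were higher past the threshold. In whole liver RNA more cells of a type and more RNA per cell cannot be told apart. Of 10 general macrophage markers tested, 9 had positive differences, with a median of 0.61, and 0 passed limma's test (4 higher at an unadjusted p under 0.05). The summed level of that list, in multiples of the array's 75th percentile, ran from 47.7 to 74.2 on the sMaf CKO arrays and from 28.4 to 52.2 on the control arrays. Tyrobp, a signalling adaptor of myeloid cells, differed by 0.96 (adjusted p = 0.153) and Itgam, an integrin of the same cells, by 0.81 (adjusted p = 0.239).

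All 11 Kupffer cell markers had positive differences, with a median of 0.74 and 0 past the test. Of these 11 markers, 4 were higher at an unadjusted p under 0.05, against 8.71% of all genes. Their summed level ran from 250.6 to 491.3 on the sMaf CKO arrays and from 126.0 to 197.9 on the control arrays, which do not overlap. Such a sum weighs bright genes most, and it was not taken without Marco. Levels of Marco were 7.69, 6.45 and 5.31 on the sMaf CKO arrays and 3.30, 3.74 and 1.23 on the control arrays. Marco, a scavenger receptor, differed by 3.73 (adjusted p = 0.0859) and Cd5l, a secreted macrophage protein, by 0.88 (adjusted p = 0.173). Among markers of monocyte-derived and lipid-associated macrophages, 9 of 10 were positive, with a median of 1.49. At an unadjusted p under 0.05, 7 were higher and 1 lower, against 8.71% and 8.1% of all genes. The negative one was Ly6c2 (-0.85, limma adjusted p = 0.289), whose groups did not overlap. Past limma's threshold 2 rose, against 0.385% of all genes. These were Trem2, a lipid receptor, 18.1-fold higher (adjusted p = 0.0105, measured on 2 of 3 control arrays), and Gpnmb, a lysosome-linked glycoprotein (difference 5.52, adjusted p = 0.0117). Gpnmb was above background on 3 of 3 sMaf CKO and 0 of 3 control arrays, so it entered the test through the sMaf CKO arrays alone. Its size rested on control signals below detection. With those arrays raised to their lowest signal of any probe above background, Gpnmb was 22.2-fold higher, which is not a lower bound. With normexp the differences of Trem2 and Gpnmb were smaller, at 2.61 and 2.56 on the log2 scale, and still past the threshold. Both calls were lost without a filter on dim probes (adjusted p = 0.0558 for Trem2 and 0.0560 for Gpnmb) and without control replicate 1 (0.0761 and 0.0690), and that of Gpnmb also without sMaf CKO replicate 1 (0.0858). The summed level of that list ran from 50.9 to 86.1 on the sMaf CKO and from 42.3 to 57.4 on the control arrays. All 11 Kupffer markers, 9 of the 10 general markers and 7 of these 10 were well above background on all 6 arrays. The part of these or other cells in the levels of Ctss and Ctsk was not tested.

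Hepatocyte markers went the other way. Of all 21059 genes tested 11525 had negative differences, and all 14 markers did, with a median of -0.58. The median was -0.21 under quantile normalization, with 2 of 14 positive, and -0.26 under spike-in scaling, with 1 positive. Tdo2, the liver enzyme of tryptophan breakdown, fell past the threshold (-1.86, adjusted p = 0.0382). That call was lost under quantile normalization (adjusted p = 0.0596), under spike-in scaling (0.327), without a filter on dim probes (0.152) and with any 1 array but sMaf CKO replicate 3 left out (0.0543 to 0.134). The summed hepatocyte marker level ran from 1922 to 3329 on the sMaf CKO arrays and from 2967 to 3780 on the control arrays, lowest on sMaf CKO replicate 1. That array also had the highest Ctss and Ctsk levels and the lowest levels of Ctsz, Lamp1, Lamp2 and Tfeb. Its 75th percentile, by which levels are scaled, was the largest, at 960.5 units against 483.4 to 668.0 on the other arrays. Before scaling, its signals of Ctsz, Lamp2 and Tfeb were the highest of the 6 arrays (61114, 51313 and 71.7 units). Its unscaled Lamp1 signal (50447 units) was below only that of control replicate 1 (54011 units). The values of these 4 genes were thus low on this array only after scaling, and the cause was not tested.

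**Figure D2:**
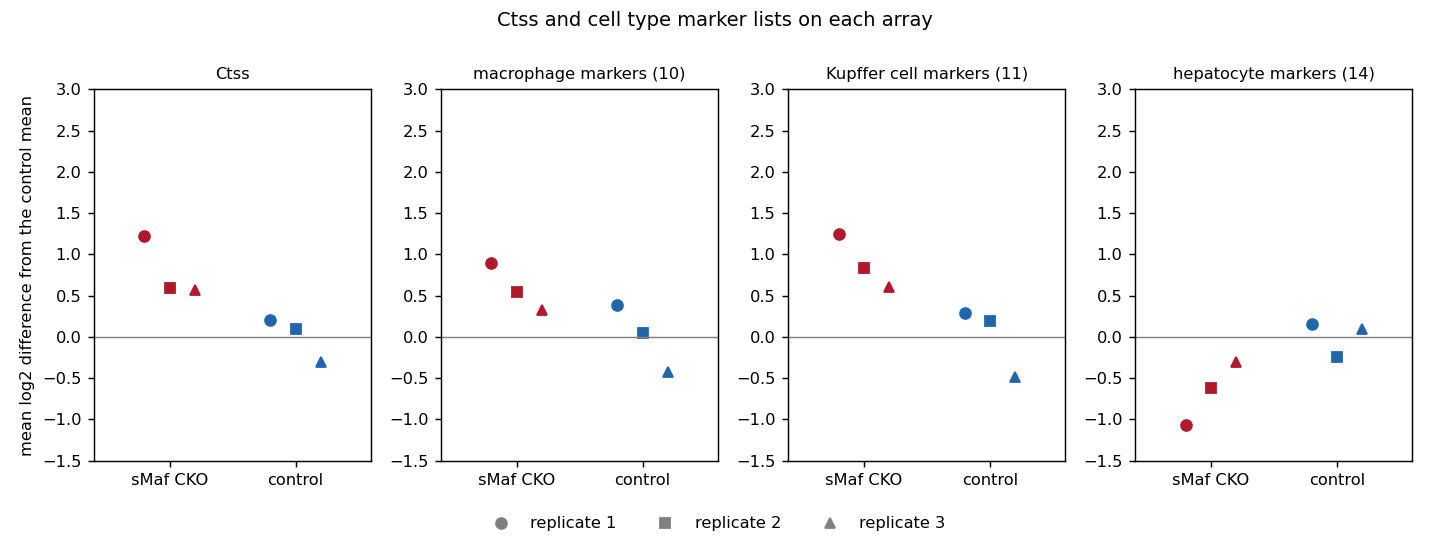
Difference of each array from the control mean (y axis, log2) for Ctss and, averaged over genes, for 3 lists of cell type markers. Points are arrays, in 3 shapes for the replicates. Ctss and Kupffer cell markers were higher on every sMaf CKO array than on any control array, general macrophage markers overlapped, and hepatocyte markers were lower on every sMaf CKO array.

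Cathepsin D, the main aspartic protease of lysosomes, had levels of 5.74, 5.78 and 6.07 on the sMaf CKO arrays and 5.58, 5.12 and 5.40 on the control arrays. The groups stood apart by a narrow margin, between sMaf CKO replicate 1 and control replicate 1. The difference was 0.49 (SE 0.23, 95% interval -0.03 to 1.02), or 1.41-fold, and did not pass (limma adjusted p = 0.322). It was 0.41 within slide 1 and 0.66 within slide 2. A dimmer Ctsd probe gave 0.27 (SE 0.28), with overlapping groups.

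Ctsa encodes a serine carboxypeptidase that also shields other lysosomal enzymes from breakdown. Its levels were 4.60, 4.58 and 4.62 on the sMaf CKO arrays and 4.54, 4.12 and 4.52 on the control arrays. The sMaf CKO arrays lay close together, just above 2 of the 3 control arrays, and control replicate 2 lay apart. The difference was 0.21 (SE 0.21, 95% interval -0.29 to 0.71, adjusted p = 0.655), and the 2 other Ctsa probes gave 0.21 and 0.38 with overlapping groups.

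Ctsb and Ctsl encode the most widely expressed cysteine cathepsins. Ctsb had levels of 6.75, 7.01 and 7.13 on the sMaf CKO arrays and 6.92, 6.47 and 6.80 on the control arrays. Ctsl had levels of 7.75, 7.98 and 8.07 on the sMaf CKO arrays and 7.84, 7.43 and 7.96 on the control arrays. For both genes the groups overlapped, 2 of 3 sMaf CKO arrays lay above the highest control array, and control replicate 2 was the lowest array. Ctsb differed by 0.23 (SE 0.23, 95% interval -0.30 to 0.76, adjusted p = 0.646) and Ctsl by 0.19 (SE 0.23, 95% interval -0.35 to 0.73, adjusted p = 0.714). These intervals leave room for a fall of up to 1.23-fold and a rise of up to 1.69-fold in Ctsb. Without control replicate 2, the differences were 0.10 for Ctsb and 0.03 for Ctsl. A dimmer Ctsb probe gave 0.02 (SE 0.24).

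Ctsz, a cysteine carboxypeptidase, was the cathepsin with a negative difference. Its levels were 5.99, 6.29 and 6.47 on the sMaf CKO arrays and 6.71, 6.22 and 6.43 on the control arrays. The groups overlapped widely, with the lowest level on sMaf CKO replicate 1 and the highest on control replicate 1. The difference was -0.21 (SE 0.24, 95% interval -0.76 to 0.35, adjusted p = 0.698). It was -0.33 within slide 1 and 0.04 within slide 2, and 0.20 and 0.12 under quantile normalization and spike-in scaling. The groups did not overlap on a second Ctsz probe, with levels of 5.75, 5.87 and 5.85 on the sMaf CKO arrays and 6.41, 5.89 and 5.89 on the control arrays, but 2 of the control arrays lay close above the sMaf CKO arrays.

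LAMP1 and LAMP2 coat the inner face of the lysosomal membrane with sugar chains, and a splice form of LAMP2 is the receptor of chaperone-mediated autophagy. Lamp1 had levels of 5.71, 6.20 and 6.47 on the sMaf CKO arrays and 6.54, 6.02 and 6.47 on the control arrays. Lamp2 had levels of 5.74, 5.91 and 6.43 on the sMaf CKO arrays and 6.29, 6.07 and 6.57 on the control arrays. Both overlapped between genotypes, with the lowest level on sMaf CKO replicate 1, and Lamp1 was nearly equal on both slide 2 arrays. Lamp1 differed by -0.22 (SE 0.27, 95% interval -0.85 to 0.42, adjusted p = 0.730) and Lamp2 by -0.28 (SE 0.26, 95% interval -0.89 to 0.33, adjusted p = 0.623). Without sMaf CKO replicate 1 these were -0.01 for Lamp1 and -0.14 for Lamp2, and both were positive under quantile normalization (0.18 and 0.11) and spike-in scaling (0.11 and 0.05). A second Lamp2 probe, which reads another annotated transcript accession, gave -0.29 (SE 0.28), close to the first.

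The direction of Ctsz, Lamp1 and Lamp2 depended on how arrays were scaled, whereas Ctsa, Ctsb, Ctsd, Ctsl and Ctss were positive under every alternative run. For 8 of the 10 genes, all but Ctsk and Tfeb, the probe was among the brightest 10% of tested genes. Over the 2106 genes of that bright set the median difference was -0.25 as scaled here, 0.04 under quantile normalization and 0.08 under spike-in scaling. Over all genes tested the medians were -0.05, 0.00 and 0.27, and spike-in scaling raised every difference by 1 constant. Under both alternatives 9 of the 10 genes were positive, Tfeb excepted, with medians over the 10 of 0.54 (quantile) and 0.53 (spike-in), and still none passed (lowest adjusted p = 0.104 and 0.410). Ctsd and Ctss differed by 0.83 and 1.07 under quantile normalization. At an unadjusted p under 0.05, 5 of the 10 were higher under quantile normalization and 1 under spike-in scaling. The shares of all genes under these settings were not taken, so nothing particular to these genes is read from those counts.

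**Figure D3:**
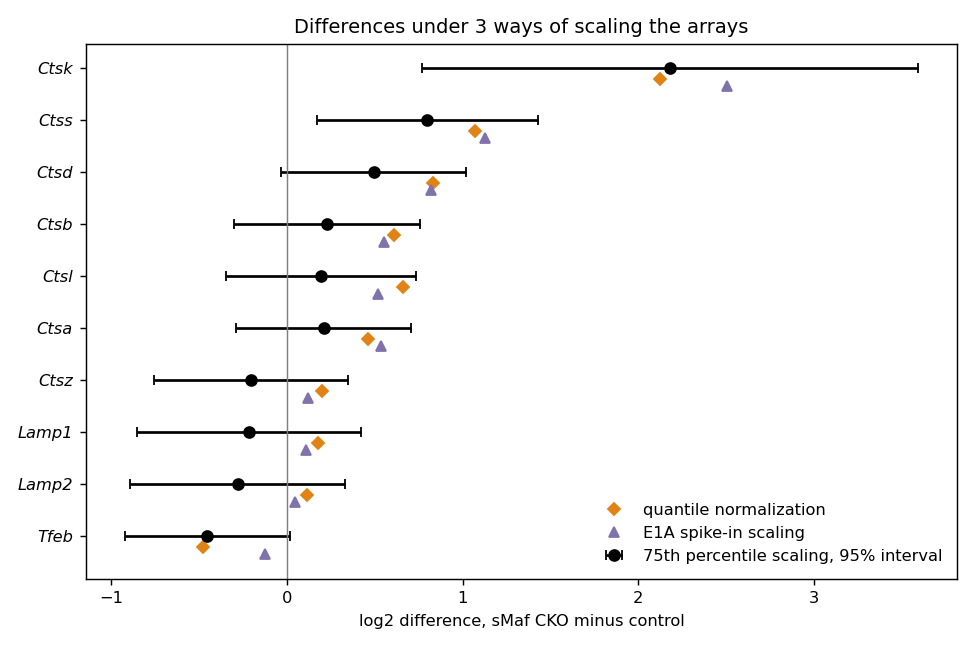
Difference of each gene (x axis, log2, sMaf CKO minus control) with its 95% interval as scaled to the 75th percentile (circles), and under quantile normalization (diamonds) and spike-in scaling (triangles). Ctsz, Lamp1 and Lamp2 lie below 0 as scaled here and above 0 under both others, while Tfeb stays below 0 and Ctsk, Ctss and Ctsd above it.

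The promoters were searched because TFEB and small Maf heterodimers bind known short motifs. RefSeq promoter sequences (GRCm38.p6) were matched by symbol for 9 of the 10 genes, not Ctsb, in 12 windows of 250 bases upstream of an annotated start. The E-box CACGTG, which reads the same on both strands, was in the windows of Lamp1, Ctsd, Ctsa and Ctsl and in 6.02% of 32851 such windows. Its extended form GTCACGTG, searched on both strands and always containing an E-box, was in those of Lamp1, Ctsd and Ctsa and in 1.85% of all windows. The core TGACNNNGC of the antioxidant response element, searched on both strands, was in the windows of Ctsd and Ctsz, overlapping no E-box there, and in 10.2% of all. The Maf half-site TGCTGAC was in none of the 12 windows and in 3.81% of all. Of 71 other lysosomal genes with a window (cathepsins, hydrolases, membrane proteins and pump subunits), 14 held an E-box and 13 the antioxidant core. The 3 windows with the extended E-box are shown 5′ to 3′ in the direction of the gene, ending at the base before the start, with each E-box in capitals.
Lamp1, chr8:13158911-13159160, plus strand: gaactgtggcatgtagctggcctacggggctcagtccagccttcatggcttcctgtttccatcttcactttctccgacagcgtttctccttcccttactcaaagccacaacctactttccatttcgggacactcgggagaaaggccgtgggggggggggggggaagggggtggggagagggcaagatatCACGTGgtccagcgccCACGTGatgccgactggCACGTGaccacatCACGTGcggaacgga
Ctsd, chr7:142387828-142388077, minus strand: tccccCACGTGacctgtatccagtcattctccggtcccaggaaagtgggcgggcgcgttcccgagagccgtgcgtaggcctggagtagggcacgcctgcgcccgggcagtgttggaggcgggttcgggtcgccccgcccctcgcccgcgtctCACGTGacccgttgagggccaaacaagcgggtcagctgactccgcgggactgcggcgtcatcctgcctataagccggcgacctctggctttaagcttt
Ctsa, chr2:164833523-164833772, plus strand: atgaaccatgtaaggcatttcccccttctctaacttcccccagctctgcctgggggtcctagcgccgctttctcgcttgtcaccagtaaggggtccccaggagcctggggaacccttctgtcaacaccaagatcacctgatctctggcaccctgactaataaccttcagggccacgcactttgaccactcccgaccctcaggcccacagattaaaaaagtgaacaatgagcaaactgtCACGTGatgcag
Lamp1 holds 4 E-boxes, which begin 61, 45, 28 and 15 bases before the start. The E-boxes of Ctsd begin at 245 and 98 bases before the start, that of Ctsa at 12 bases. Lamp1, with the most E-boxes, differed by -0.22, and Ctsd and Ctsa by 0.49 and 0.21, none past the test. A match is a description of the letters and not a measure of binding.

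**Figure D4:**
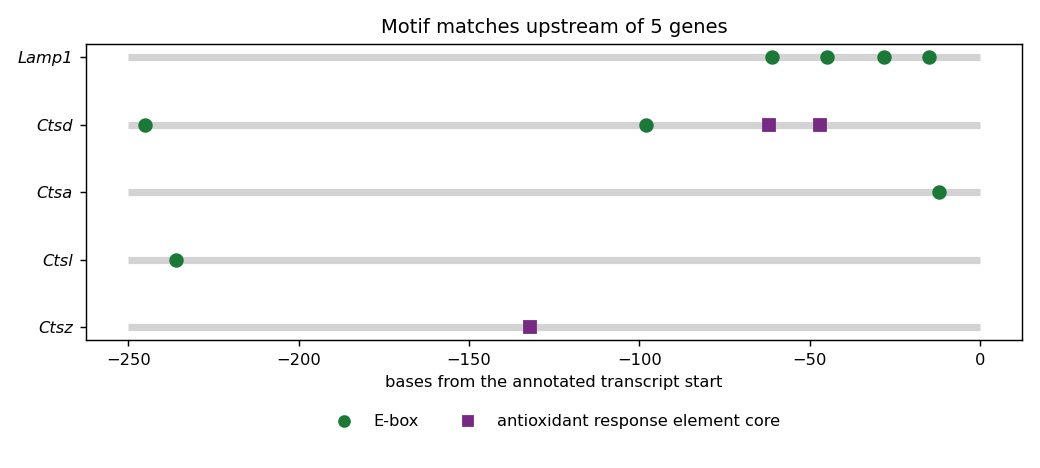
Start of each match to the E-box (circles) and to the antioxidant response element core (squares) in the 250 bases upstream of 5 genes (x axis, bases from the annotated transcript start). Lamp1 holds 4 E-boxes within 61 bases of the start, and Ctsd holds 2 E-boxes and 2 antioxidant cores.

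Genes of 7 lists beside the 10 genes, called other lysosomal genes here, were mixed in sign. The lists also hold inhibitors of cathepsins, sorting genes, and TFEB relatives with their nutrient-sensing control, whose products need not lie in the lysosome. Of the 129 tested, 0 passed limma's test in either direction, and the medians of the lists lay between -0.20 and 0.21. Among 39 other hydrolases, 18 were positive and 21 negative (median -0.04). At an unadjusted p under 0.05, 6 were higher and 1 lower, against 8.71% and 8.1% of all genes. Galns, a sulfatase of keratan sulfate, differed by 0.81 (adjusted p = 0.152) and Hyal1, a hyaluronidase, by -1.11 (adjusted p = 0.162). Among 6 other cathepsins, 2 were positive and 4 negative, with 0 at an unadjusted p under 0.05 and the smallest p for Ctsf (-0.49, adjusted p = 0.380) and Ctsg (-0.72, adjusted p = 0.443). The sorting list, which holds the mannose 6-phosphate receptors, had 4 of 12 positive (median -0.06), with Igf2r, the large receptor, at 0.58 (adjusted p = 0.229) and the adaptor Gga3 at 0.54 (adjusted p = 0.285). Under quantile normalization the medians of all 7 lists were higher, and of the negative ones only that of the sorting list stayed below 0 (-0.02).

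In these lists of 129 tested genes, 4 passed the threshold with slide as a block, where 340 of all 21059 genes did. With array weights 4 more did (Galns, Hyal1, Serpinb1a and Arsa, the last named after its values were seen). Under that setting 1141 of all 21059 genes passed, so nothing particular to these lists is read from its count. Cd63, a tetraspanin of late endosomes and lysosomes, had levels of 4.86, 4.95 and 3.66 on the sMaf CKO arrays and 1.75, 2.41 and 1.07 on the control arrays. It was 6.71-fold higher (difference 2.75, SE 0.45, adjusted p = 0.0525). Rragd, a Rag GTPase that recruits mTORC1 and TFEB to the lysosome, had levels of -0.17, -0.06 and -1.29 on the sMaf CKO arrays and -2.48, -2.89 and -2.89 on the control arrays. It was 4.75-fold higher (difference 2.25, SE 0.36, adjusted p = 0.0503). In both genes the groups stood far apart, and the sMaf CKO array nearest to the controls was replicate 3, the one on slide 2. Serpinb6a, an inhibitor of serine proteases, was 3.01-fold higher (1.59, SE 0.29, adjusted p = 0.0612). Atp6v0d2, a subunit of the proton pump found mainly in osteoclasts and macrophages, differed by -1.36 (SE 0.26, adjusted p = 0.0769). With slide as a block, where 0.992% of all genes rose and 0.622% fell, Cd63, Rragd and Serpinb6a were higher (adjusted p = 0.01004, 0.0207 and 0.0258) and Atp6v0d2 was lower (adjusted p = 0.0494), and none of the 10 genes passed, Ctsk and Ctss having adjusted p = 0.125 and 0.132.

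The other proton pump subunits, membrane proteins and TFEB relatives showed smaller differences. Of 18 pump subunits, 9 were positive (median 0.02), and Atp6v0a1 differed by -0.51 (adjusted p = 0.356). Of 26 other membrane proteins, 13 were positive (median -0.01), and Clcn7, a chloride and proton exchanger of lysosomes, differed by -0.73 (adjusted p = 0.188). Of 20 genes for TFEB relatives and their nutrient-sensing control, 8 were positive (median -0.06), and Tfec, a relative of TFEB known from macrophages, differed by 0.62 (adjusted p = 0.272). Of 8 cathepsin inhibitors, 5 were positive (median 0.21), with Serpinb1a, an inhibitor of neutrophil proteases, at -1.63 (adjusted p = 0.151).

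Neutrophil and other cell markers were tested as well, where 45.3% of all genes had positive differences. Of 7 neutrophil markers 3 were positive (median -0.05), with S100a9 at 0.49 (adjusted p = 0.436) and S100a8 at 0.48 (adjusted p = 0.497). All 9 stellate cell markers were positive (median 0.43), with Reln at 0.84 (adjusted p = 0.109) and Lrat at 0.79 (adjusted p = 0.202). Of 8 endothelial markers 1 was positive (median -0.17, positive under spike-in scaling), with Kdr at -0.56 (adjusted p = 0.380) and Stab2 at -0.46 (adjusted p = 0.424). Of 7 cholangiocyte markers 6 were positive (median 0.19), with Epcam at 0.89 (adjusted p = 0.235) and Sox9 at 0.63 (adjusted p = 0.415). None of these 4 lists held a gene past limma's threshold.

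**Figure D5:**
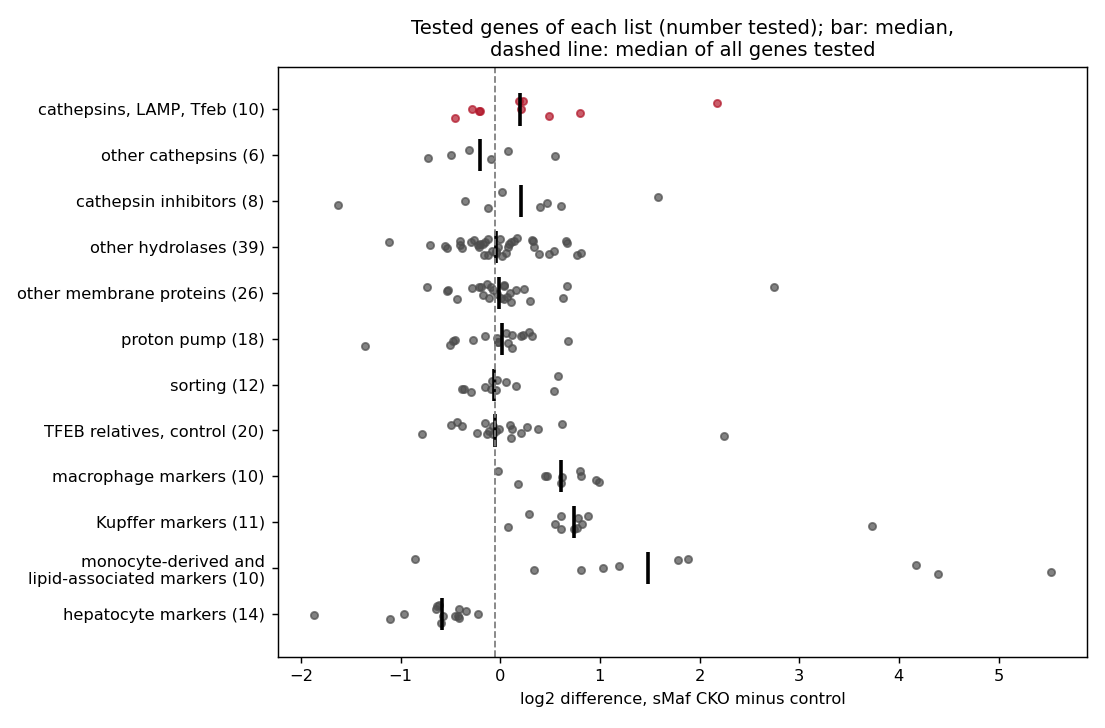
Differences (x axis, log2, sMaf CKO minus control) of all tested genes of each list, 1 point a gene, with the list median as a bar and the median of all genes tested, -0.05, as a dashed line. The medians of the lysosomal lists lie between -0.20 and 0.21, those of the 3 macrophage lists between 0.61 and 1.49 and that of hepatocyte markers at -0.58.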

How the data were processed

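Per the file headers, the authors extracted spot intensities with Agilent Feature Extraction 10.7.3.1; the deposited processed intensity is background-subtracted and detrended within an array, and the design names build mm9. The labels' protocols give 500 ng of total RNA per labelling. The deposited value table holds log2 values, which matched the scanner values scaled to the 75th percentile and centred for each probe on its median over the arrays (lowest r = 0.999); the authors' steps behind it are not stated in the labels or headers. Its column medians were -0.10, -0.11 and 0.09 for sMaf CKO 1, 2 and 3 and 0.05, -0.02 and 0.08 for control 1, 2 and 3.

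Control spots and outlier spots were left out, spots of a probe averaged, and 27859 probes kept, each detected above background on 3 or more arrays. Probes were named by accession (26682 with 1 symbol, 14492 with none), and a gene was read by its brightest kept probe. limma 3.58.1 in R 4.3.3 fitted genotype alone over all genes, with Benjamini-Hochberg adjustment and a threshold of 0.05. Second probes were fitted over all kept probes. Spike-in scaling used 5 bright E1A probes. The set of the brightest genes was formed after seeing the data. The fit was tested on simulated data with known log2 changes. It called 2.99% of changes of 1, 89.6% of changes of 2 and 98.5% of changes of 4. There were 11 false calls with 21012 genes simulated. A miss therefore says little about differences of 1 or less.

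The members and lists were chosen with earlier results of these data known. Named are all 10 genes, the small Maf genes, and for each list its genes past the threshold or else the 2 with the smallest p. Cd63, Rragd, Serpinb6a and Atp6v0d2 fall under this rule. Arsa and Ly6c2 were named after their values were seen. Replicate numbers were not taken as pairs, since same-numbered arrays of the genotypes did not all deviate together (r = 0.06, 0.17 and 0.42 for replicates 1, 2 and 3). Between genotypes, r was 0.01 to 0.42 for arrays on the same slide and -0.37 to -0.07 for arrays on different slides. The main fit held no slide term, so results with slide as a block are given beside it.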

Additional observations from a re-analysis of the deposited data

How the results depend on the processing

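Under all 20 alternatives the count of the 10 genes past the threshold stayed at 0 in both directions, the lowest adjusted p being 0.0535 for Ctsk without control replicate 2. Signs turned for Ctsz (0.20 under quantile normalization, 0.12 under spike-in scaling), Lamp1 (0.18 and 0.11) and Lamp2 (0.11 and 0.045), for Maff with array weights (-0.44) and with arrays left out (from -0.37 without control replicate 2 to 0.52 without sMaf CKO replicate 2, and -0.11 without sMaf CKO replicate 3), and for Mafk with arrays left out (from -0.070 without control replicate 2 to 0.44 without control replicate 3) and within slide 2 (-0.29). In all other cases the 10 genes kept their sign, apart from Ctsz within slide 2. Over the 129 other lysosomal genes, the count of genes higher was 0 as analysed and 1 with normexp (Rragd), 2 within slide 1, 5 with array weights, and 3 each with median scaling, a filter on all 6 arrays, the slide block, the replicate block and eBayes with trend and robust settings. Those 3 were Cd63, Rragd and Serpinb6a each time. With 1 array left out the count ran from 0 to 3, with 1 (Cd63) without control replicate 2 and 3 (the same genes) without sMaf CKO replicate 3. The count of genes lower was 1 (Atp6v0d2) with the filter on all 6 arrays and with the slide block, 3 with array weights, and 0 with any array left out. The replicate block changed no call of the 10 genes (lowest adjusted p = 0.116), and over all genes it raised the count of calls from 114 to 291. The slide block raised the count over all genes to 340. That count ran from 1 without a filter on dim probes to 1141 with array weights, and with 1 array left out it was 6, 175 and 22 without control replicate 1, 2 and 3 and 3, 11 and 294 without sMaf CKO replicate 1, 2 and 3. The median of the 10 genes was 0.05 without control replicate 2 and 0.14 without sMaf CKO replicate 3, against 0.20 with all arrays. The count of the 10 genes higher at an unadjusted p under 0.05 was 1 without control replicate 3 or sMaf CKO replicate 1. The share of all genes was not taken for that count. The filter on all 6 arrays removed Ctsk. The cause of these shifts was not tested. Ctsk lies at the limit of detection in control liver. Raising its dim arrays, a setting chosen after seeing the data, gave a difference of 1.03.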
